A study of Mus musculus with 451 samples.

Results

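Genes that restrain or promote mineral deposition were examined in single cells of mouse tail tendon with and without Mkx, the gene of the tendon transcription factor Mohawk. The 9 genes were taken by name from the 48795 gene rows of the count table. They were the inhibitors Mgp, Spp1, Enpp1 and Ank, the promoters Slc20a1, Slc20a2, Alpl and Phospho1, and the bone marker Bglap. Reads were counted in 227 cells of wild-type mice (WT) and 224 cells of Mkx-/- mice, all of strain C57BL/6, 4 weeks old and with no treatment named, from tail tendons digested with collagenase and captured on the Fluidigm C1 system. Neither the knockout allele, the number of mice nor the animal or chip of a cell was given in the labels, so a genotype was 1 sample and no test between genotypes was possible. Each value below is therefore a description of these cells. Intervals in parentheses are exact 95% intervals of counting error only. Reads are not independent molecules, and the intervals do not cover the error between mice.

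Mineral forms where inorganic phosphate outweighs pyrophosphate, an inhibitor of crystal growth. ENPP1 makes pyrophosphate outside the cell from nucleotides, and ANK, a membrane protein, raises pyrophosphate outside the cell. The phosphatase encoded by Alpl breaks pyrophosphate down, Phospho1 releases phosphate inside matrix vesicles, and the transporters PiT-1 (Slc20a1) and PiT-2 (Slc20a2) carry phosphate into cells. Matrix Gla protein (Mgp) and osteopontin (Spp1) are secreted proteins that hold back mineral growth, and osteopontin is also abundant in bone matrix. Osteocalcin (Bglap) is a Gla protein of osteoblasts. Loss of Mkx is known to be followed by ossification of tendons in mice, and it was asked how the inhibitor and promoter genes stood in tendon cells of the labelled genotypes.

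The cells held 13630536 reads in WT and 14145394 in Mkx-/-, with medians of 51788 and 56121 reads per cell. Levels are the reads summed over the cells of a genotype, scaled to 1000000 reads (CPM). The targeted gene Mkx was at 33.8 CPM in WT against 15.5 CPM in Mkx-/- cells (log2 ratio -1.13, from -1.37 to -0.89), so that reads were still assigned to it in the Mkx-/- cells. The cells were clustered after the study's method. The cluster with the highest levels of tendon progenitor (TPC) markers, called TPC-like, held 45.8% of the WT and 43.3% of the Mkx-/- cells. The cluster with the highest levels of tenocyte (TC) markers, called TC-like, held 74 WT and 81 Mkx-/- cells. Cluster 3 held 49 and 46 cells, had only 2 tenoblast markers to rest on and was left unnamed. TC-like cells were also led by Ucma and Col2a1, genes of cartilage, besides Tnmd and Col11a2. The osteoblast markers Ibsp, Sp7 and Mepe had no read in any of the 451 cells, which by the limit of 3 counts allows a share of cells with a read of up to 1.32% in WT and 1.34% in Mkx-/-, and does not limit the share that express them.

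Over all cells the inhibitors stood higher in Mkx-/- than in WT. Spp1 and Ank were the 2 genes among the 7 with at least 100 reads that were higher by over 2-fold, beside 7.23% of the 10963 genes tested at that depth, and 0 of the 7 were lower by over 2-fold, beside 6.12% of genes. At 1.5-fold 5 of the 7 were higher, beside 16% of genes. The median log2 ratio was 0.70 over the 7 genes and 0.91 over the 4 inhibitors, against 0.05 over all genes tested, whose ratios had a standard deviation of 0.81. Of the 7 genes, 5 had the higher summed level in Mkx-/- cells, as had 55.1% of all genes tested, and 6 had a read in a larger share of Mkx-/- cells, as had 66.2% of all genes.

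**Figure D1:**
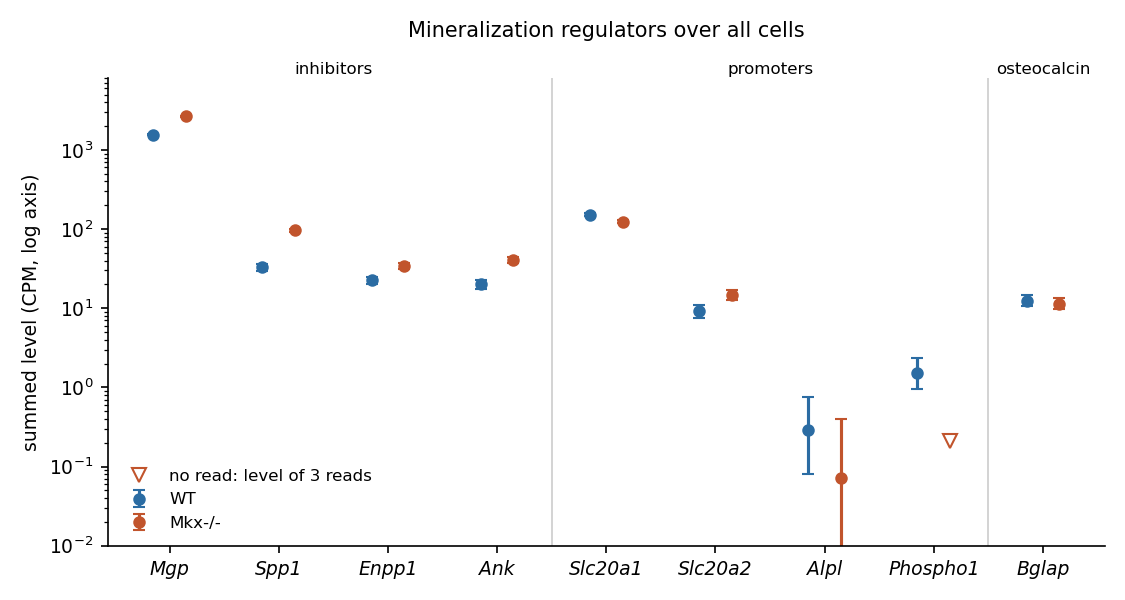
Summed level of each gene over all cells of a genotype in CPM on a log axis, WT in blue and Mkx-/- in orange, with exact 95% Poisson intervals as bars; the lower bar of Alpl in Mkx-/- runs below the axis and the open triangle marks the level of 3 reads where Phospho1 had none. Mgp stood at 1548 and 2662 CPM, above every other member, and Alpl and Phospho1 lay near or below 1.54 CPM.

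Mgp was the most abundant of the 9 genes. Per kilobase of exon it reached 2588 CPM in WT and 4451 in Mkx-/-, compared with 27.4 and 22.1 for Slc20a1, 19.9 and 58.4 for Spp1, 20.2 and 18.4 for Bglap, 5.55 and 11.3 for Ank, 2.49 and 4.05 for Slc20a2 and 2.19 and 3.36 for Enpp1. Among the lower genes, Spp1 and Bglap were near each other in WT, whereas Spp1 led Slc20a1 and Bglap in Mkx-/- cells. Mgp (chromosome 6, 136872435 to 136875823 on GRCm38.p6) was read in 85.02% of WT and 97.3% of Mkx-/- cells. Its level in a WT cell ran from 0 over a median of 215.4 CPM to 17480 CPM, and in a Mkx-/- cell from 0 over a median of 733.9 CPM to 23948 CPM. The groups overlapped over nearly all of their range, and the medians lay further apart than the summed levels.

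The Mgp difference was unlike between the clusters. In TPC-like cells Mgp was the 1 of 6 members with at least 100 reads that was higher by over 2-fold, beside 8.09% of 8451 genes, and 0 of the 6 were lower, beside 7.35%. There, where the gene was lowest, Mgp was at 115.2 CPM in WT against 367.9 CPM in Mkx-/- cells (log2 ratio 1.67, from 1.54 to 1.81), and the share of these cells with a read was 70.2% and 94.8%. In TC-like cells, where every cell of both genotypes held a read, it was at 2483 and 4522 CPM (log2 ratio 0.86, from 0.84 to 0.89), and the median cell was at 1109 and 3285 CPM. In cluster 3 the levels were 2193 and 1989 CPM and the log2 ratio was -0.14 (-0.20 to -0.08). The ratio in TPC-like cells rested partly on which cells were put there, since it was 0.85 when cells were clustered without the 9 genes and the other mineralization genes, which moved 2 WT cells, and 1.41 with 10 dimensions. TC-like cells held 74.8% of all Mgp reads in WT and 83.7% in Mkx-/- cells. Mgp may have helped to form the clusters, so the gap between clusters is a description.

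Of the 7 genes with at least 100 reads, Spp1 (chromosome 5, 104435111 to 104441053) had the widest gap between genotypes and the largest share of its reads in TC-like cells. It was at 32.8 CPM in WT against 96.3 CPM in Mkx-/- cells (log2 ratio 1.55, from 1.40 to 1.71). It was read in 26 WT and 81 Mkx-/- cells. Among those cells the WT values ran from 5.96 over a median of 66 to 1472 CPM, and the Mkx-/- values from 11.9 over a median of 81.4 to 3280 CPM. The cells with a read thus had similar medians, and 3.16 times as large a share of the Mkx-/- cells held one. A few cells carried many of the reads in either genotype, with 20.1% of the reads in 1 WT cell and 17.3% in 1 Mkx-/- cell, and the log2 ratio was 1.62 without these leading cells.

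In TC-like cells Spp1 was at 69.7 CPM in WT against 178.6 CPM in Mkx-/- cells. It was read in 29.7% of the former and 66.7% of the latter, a difference of 36.9 percentage points (21.4 to 50.02). These cells held 99.1% of the Spp1 reads of WT and 91.3% of those of Mkx-/- cells. At an equal depth of 28000 reads per cell the shares were 23.4% and 56.4%. Outside this cluster WT cells held 4 Spp1 reads in all, 3 in TPC-like cells and 1 in cluster 3. The Mkx-/- cells held 31 and 87 reads there, in 16.5% and 23.9% of the cells. The ratios in these clusters rested on the few WT reads, and 1 cell held 40.2% of the 87 reads.

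Some Spp1 reads lay in cells with macrophage genes. Of 10 macrophage and osteoclast markers, which included Ptprc, Csf1r and Lyz2, at least 3 were read in 9 WT cells and 4 Mkx-/- cells. The summed markers were at 141.3 CPM in WT against 128.6 CPM in Mkx-/- cells and ran from 0 over a median of 0 to 13046 and 11177 CPM in a cell, and Mmp9 was at 0. The 9 WT cells held 22.6% of the 447 Spp1 reads of WT, and the 4 Mkx-/- cells held 4 of 1362 reads. Without these 13 cells, an alternative chosen after the data were seen, the log2 ratio of Spp1 was 1.84 (1.67 to 2.02) over all cells, and in TC-like cells Spp1 was at 59 and 178.6 CPM. The log2 ratio of Ank over all cells was then 0.96, just under 2-fold. One of the markers, the osteoclast gene Atp6v0d2, had 33 reads in WT and 323 in Mkx-/-. Acp5, the gene of the phosphatase TRAP of osteoclasts and not on the marker list, had 79 and 1767 reads, in 5.73% of WT and 35.3% of Mkx-/- cells. In TC-like cells Acp5 had 11 and 1366 reads, in 5.41% and 55.6% of cells. Within the Mkx-/- TC-like cells Acp5 was read in 57.4% of the 54 cells with a Spp1 read and in 51.9% of the 27 without. The Acp5 levels were 211.6 and 158.6 CPM, but 1 cell with a Spp1 read held 38.1% of the Acp5 reads. The higher Acp5 level in cells with a Spp1 read rests on that cell. Atp6v0d2 was at 5.48 and 60.7 CPM, and 1 cell without a Spp1 read held 62.3% of its reads in these TC-like cells. The part of either gene in the Spp1 difference was not tested. The osteopontin receptor genes Cd44, Itgav, Itgb1, Itgb3 and Itgb5 were all read, with log2 ratios from -0.10 to 0.44 and none past 2-fold. Cd44 is also a TPC marker here.

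Enpp1 (chromosome 10, 24637914 to 24712159) and Ank (chromosome 15, 27466677 to 27594909), the genes that supply pyrophosphate outside the cell, were both higher in Mkx-/- cells in the TC-like cluster. Enpp1 was at 14.6 CPM (11.8 to 17.9) in WT against 48.4 CPM (43.3 to 53.8) in Mkx-/- TC-like cells (log2 ratio 1.72, from 1.39 to 2.07). Ank was at 11.2 CPM (8.73 to 14.1) and 52.2 CPM (47 to 57.9) (log2 ratio 2.22, from 1.85 to 2.61), the widest of the 4 inhibitors in these cells. Both were read in a larger share of the Mkx-/- cells, Enpp1 in 18.9% and 39.5% and Ank in 20.3% and 42%. Leaving out the leading cell of each genotype gave log2 ratios of 1.86 and 2.35. With Spp1 they made 3 of the 6 members with at least 100 reads in this cluster that were higher by over 2-fold, beside 14.1% of 8215 genes, while Bglap was the 1 that was lower, beside 6.7% of genes. The median log2 ratio of all genes tested in TC-like cells was 0.21.

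In the other clusters Ank stood differently, although no test of a difference between clusters was possible. The Enpp1 ratios there depended on single cells. Ank in TPC-like cells was at 26.2 CPM in WT against 26.3 CPM in Mkx-/- cells (log2 ratio 0.01, from -0.35 to 0.37), and in cluster 3 it was at 31.5 and 38.4 CPM (log2 ratio 0.28, from -0.20 to 0.77). The TC-like cluster thus had the lowest Ank level of the 3 clusters in WT and the highest in Mkx-/- cells, also without the leading cells, where TPC-like, cluster 3 and TC-like stood at 19.3, 22.1 and 8.73 CPM in WT and at 22.8, 18.1 and 44.5 CPM in Mkx-/- cells. Enpp1 in TPC-like cells was at 23.4 CPM in WT against 15.8 CPM in Mkx-/- cells, but 1 WT cell held 89.2% of those WT reads. Without the leading cells Enpp1 was at 2.57 and 11.3 CPM there, so the log2 ratio of -0.57 (-1.0 to -0.15) became 2.14 (1.25 to 3.14). In cluster 3 Enpp1 had a log2 ratio of -0.39 (-0.86 to 0.07), from reads in 3 WT and 6 Mkx-/- cells. Of the WT reads 54.8% lay in 1 cell, and without the leading cells the log2 ratio was -0.02 (-0.67 to 0.63). It was 0.68 (0.10 to 1.26) without the cells with 3 macrophage markers, the alternative chosen after the data were seen.

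**Figure D2:**
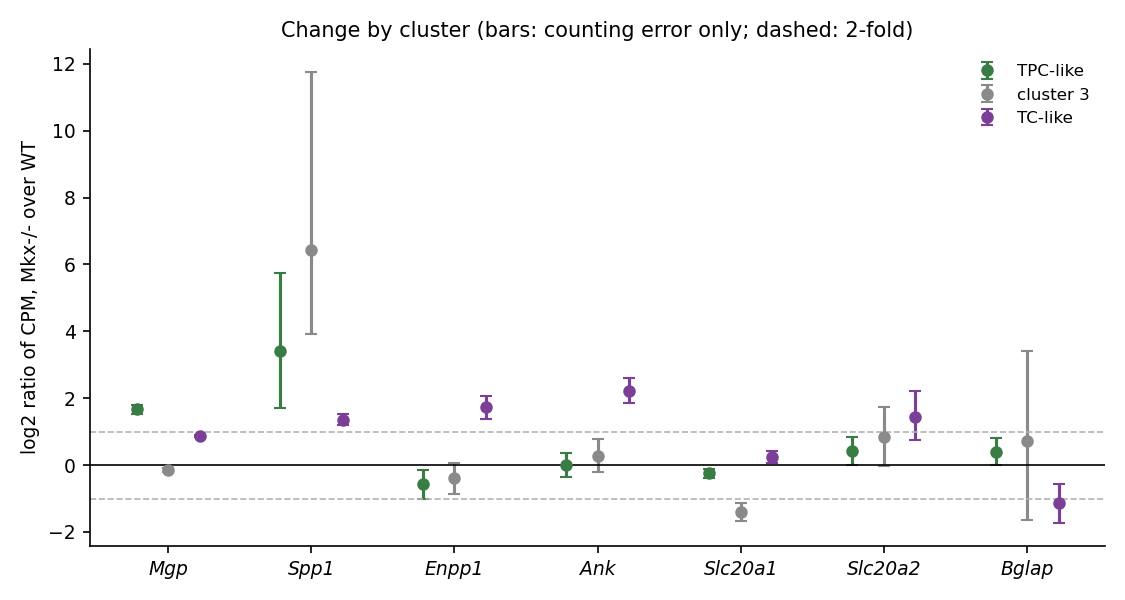
Log2 ratio of the summed CPM, Mkx-/- over WT, for 7 genes in TPC-like cells (green), cluster 3 (grey) and TC-like cells (purple), with exact 95% intervals of counting error as bars and dashed lines at 2-fold. Enpp1 at 1.72 and Ank at 2.22 stood above 2-fold in TC-like cells and near or below 0.28 in the other clusters. The TPC-like Enpp1 ratio rests on 1 WT cell with 89.2% of the WT reads there, and was 2.14 without the leading cells. The cluster 3 Enpp1 ratio was -0.02 without them. Slc20a1 was at -1.41 in cluster 3, and the Spp1 ratios outside TC-like cells rest on 3 and 1 WT reads.

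Over all cells the same genes gave smaller and less stable differences. Ank was at 20.03 CPM in WT against 40.9 CPM in Mkx-/- cells (log2 ratio 1.03, from 0.82 to 1.24), and was read in 16.7% and 30.8% of cells. That value weighted deep cells most, and it was 0.44 as a mean of per-cell CPM and 0.40 at 28000 reads per cell. The difference in TC-like cells remained at that depth, where Ank was at 14.3 and 53.8 CPM. Enpp1 was at 22.4 CPM in WT against 34.4 CPM in Mkx-/- cells (log2 ratio 0.62, from 0.41 to 0.83), and this ratio was 1.12 without the leading cells, of which the WT one held 35% of the reads. Reads of Ank cannot be told apart here from those of Gm29901 and Mir7117, which overlap it in RefSeq, since the strand setting of the counting was not given in the sources used here.

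The sequences just before the starts of the inhibitor genes that stood over 2-fold higher in Mkx-/- TC-like cells are shown because these genes differed together in that cluster. Each is the 250 bases before the gene start in RefSeq on GRCm38.p6, 5′ to 3′ on the strand of the gene, and capitals mark ACCACA, the core letters bound by RUNX factors, or its reverse complement TGTGGT. The windows are Spp1 at chr5:104434861-104435110 on the plus strand, Enpp1 at chr10:24712160-24712409 on the minus strand and Ank at chr15:27466427-27466676 on the plus strand.
Spp1: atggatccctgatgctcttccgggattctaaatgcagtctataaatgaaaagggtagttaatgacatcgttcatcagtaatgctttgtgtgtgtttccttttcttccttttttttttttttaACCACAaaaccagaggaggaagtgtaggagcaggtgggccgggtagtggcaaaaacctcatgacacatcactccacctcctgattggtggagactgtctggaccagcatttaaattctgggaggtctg
Enpp1: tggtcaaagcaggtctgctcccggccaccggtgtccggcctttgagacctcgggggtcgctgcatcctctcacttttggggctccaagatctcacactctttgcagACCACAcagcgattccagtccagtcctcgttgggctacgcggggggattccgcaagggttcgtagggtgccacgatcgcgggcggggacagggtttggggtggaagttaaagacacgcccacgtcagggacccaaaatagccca
Ank: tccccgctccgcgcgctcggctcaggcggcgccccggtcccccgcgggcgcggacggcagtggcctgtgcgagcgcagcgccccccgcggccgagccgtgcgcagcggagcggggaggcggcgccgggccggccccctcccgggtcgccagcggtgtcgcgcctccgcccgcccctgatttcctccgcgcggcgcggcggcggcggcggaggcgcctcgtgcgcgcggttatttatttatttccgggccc
ACCACA lay once in the Spp1 and once in the Enpp1 window, and neither form was in the Ank window, of which 81.2% was G or C. Of the 7 members with a window at the gene start, 4 held the letters on either strand, namely Spp1, Enpp1, Slc20a1 and Bglap. Slc20a1 and Bglap were not over 2-fold higher in TC-like cells. Further windows of Spp1, Slc20a1 and Alpl at other starts held no match. Over 32851 windows of this length, which include such other starts, 14.05% held the letters. A match is not a binding site shown by these data. Of the RUNX genes only Runx2 was examined here, and it was sparse, with 18 reads over the WT and 6 over the Mkx-/- cells.

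The phosphate side was carried by Slc20a1 (chromosome 2, 129198773 to 129211615), which was read in 55.9% of WT and 52.2% of Mkx-/- cells. It was at 152.7 CPM (146.2 to 159.4) in WT against 123.6 CPM (117.8 to 129.5) in Mkx-/- cells (log2 ratio -0.31, from -0.40 to -0.21). The gene differed most in cluster 3, where it was at 209.4 CPM in WT against 79 CPM in Mkx-/- cells (log2 ratio -1.41, from -1.67 to -1.15). There it was the 1 of 4 members with at least 100 reads that was lower by over 2-fold, beside 9.34% of 5773 genes, and 0 were higher, beside 11.4%. The share of cluster 3 cells with a Slc20a1 read was 61.2% and 39.1%, a difference of -22.1 percentage points (-39.8 to -2.02). At 28000 reads per cell the shares were 60% in WT and 35.5% in Mkx-/- cells. Without the leading cells the log2 ratio was -1.49.

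In TPC-like cells Slc20a1 was at 220.3 and 185.1 CPM, with a read in 57.7% of cells of either genotype. TC-like cells had the lowest WT level, 78.9 CPM, and 93.2 CPM in Mkx-/- cells (log2 ratio 0.24, from 0.07 to 0.41), near the median of all genes in that cluster. At 28000 reads per cell the TC-like levels were 85 and 83.2 CPM. In both genotypes Slc20a1 stood higher in TPC-like than in TC-like cells, the reverse of Mgp and Spp1.

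Slc20a2 (chromosome 8, 22476700 to 22569616), the gene of the related transporter, was read in 16 WT and 29 Mkx-/- cells. It was at 9.10 CPM (7.57 to 10.8) in WT against 14.8 CPM (12.8 to 16.9) in Mkx-/- cells (log2 ratio 0.70, from 0.37 to 1.03). Cells with a read ran from 14 over a median of 88 to 673.9 CPM in WT and from 7.86 over a median of 42.3 to 626.3 CPM in Mkx-/-. The cells of the genotypes overlapped, and 1 cell held 29.8% of the WT reads and 1 cell 16.3% of the Mkx-/- reads. In TC-like cells its reads numbered 22 and 66, from 3 and 7 cells. Smim19 overlaps Slc20a2 in RefSeq.

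The phosphatases of mineralizing cells were almost unread. Alpl had 4 reads in 1 WT cell and 1 read in 1 Mkx-/- cell, both TC-like. Phospho1 had 21 reads, all in 1 WT cell of cluster 3, and was read in 0 of 224 Mkx-/- cells, which by the limit of 3 counts allows a share of cells with a read of up to 1.34%. A difference between genotypes was not detectable for either at this depth. Abi3 overlaps Phospho1 in RefSeq. Anxa2 and Anxa5, annexins of matrix vesicles, were in contrast among the abundant genes, at 2522 and 2471 CPM in WT against 2883 and 2790 CPM in Mkx-/- cells.

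**Figure D3:**
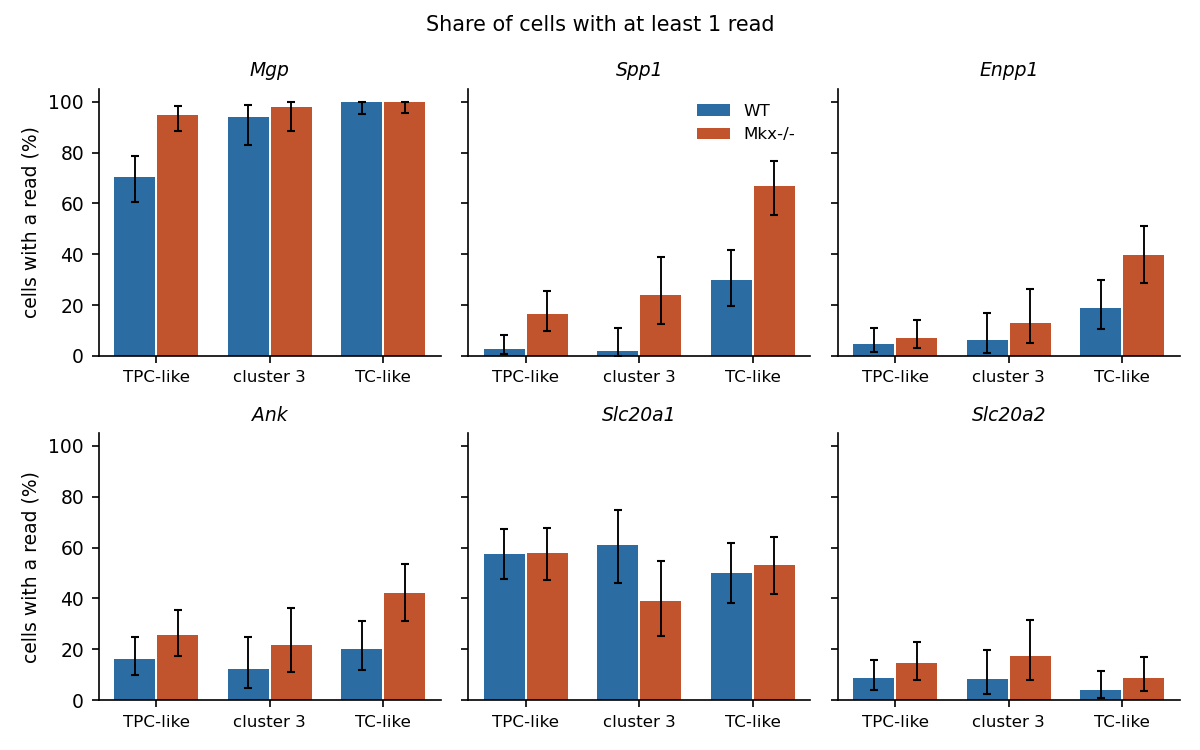
Percentage of cells with at least 1 read of 6 genes in TPC-like cells, cluster 3 and TC-like cells, WT in blue and Mkx-/- in orange, with exact 95% binomial intervals as bars. For Spp1, Enpp1 and Ank the TC-like bars stand at 29.7%, 18.9% and 20.3% in WT and at 66.7%, 39.5% and 42% in Mkx-/-, whereas Slc20a1 in cluster 3 stands at 61.2% and 39.1%.

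Osteocalcin was read from near-identical genes. The first 120 coding bases of Bglap and its neighbours Bglap2 and Bglap3 are shown because reads cannot always be told apart between them. They were read from GENCODE M1 transcripts, 5′ to 3′ on the coding strand, and capitals mark bases that differ from Bglap.
Bglap: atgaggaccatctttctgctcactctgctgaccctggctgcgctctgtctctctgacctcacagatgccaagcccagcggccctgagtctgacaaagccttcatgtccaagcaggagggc
Bglap2: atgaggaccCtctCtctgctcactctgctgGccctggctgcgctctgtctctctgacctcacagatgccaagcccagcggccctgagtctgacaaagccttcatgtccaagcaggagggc
Bglap3: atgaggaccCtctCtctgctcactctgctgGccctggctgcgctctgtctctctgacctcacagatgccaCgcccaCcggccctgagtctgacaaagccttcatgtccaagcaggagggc
Over 288 coding bases Bglap2 differed from Bglap at 4 and Bglap3 at 13 positions. Of the 291 stretches of 150 bases in the Bglap transcript, 92 were also in Bglap2 and 0 in Bglap3. Values of Bglap and Bglap2 are uncertain for that reason, and 15 of the 17 WT cells with a Bglap read also had a Bglap2 read, as did 16 of the 21 Mkx-/- cells.

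Bglap (chromosome 3, 88383495 to 88384466) was at 12.5 CPM (10.7 to 14.5) in WT against 11.4 CPM (9.69 to 13.3) in Mkx-/- cells (log2 ratio -0.13, from -0.45 to 0.19). Bglap2 was at 10.1 and 22.1 CPM (log2 ratio 1.14, from 0.84 to 1.44). Summed, they were at 22.5 and 33.5 CPM, read in 9.25% and 12.9% of cells. The summed levels differed in direction between clusters, with 25.4 and 74.8 CPM in TPC-like cells (log2 ratio 1.56, from 1.27 to 1.86), and 26.9 and 12.5 CPM in TC-like cells (log2 ratio -1.11, from -1.50 to -0.73). These sums came from 9 and 15 TPC-like cells and from 8 and 11 TC-like cells, and 1 cell held 75.9% of the TC-like reads of Mkx-/-. Bglap alone had a log2 ratio of -1.13 in TC-like cells and -3.01 without the leading cells. The osteoblast list had no other marker read in Mkx-/- cells, where Ibsp, Sp7, Mepe, Dmp1 and Phex were at 0. In WT cells Dmp1 had 2 reads and Phex 9. The list's summed level was 10.9 CPM in WT against 22.1 CPM in Mkx-/- cells, with a range over cells of 0 to 432.1 and 0 to 1228 CPM, and nearly all of it was Bglap2.

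Reads of several inhibitor genes were found in more Mkx-/- than WT cells. At least 2 of the 4 were read in 64 WT cells, 28.2%, and in 60.7% of Mkx-/- cells. At least 3 were read in 6.61% and 21.9% of cells. None of the 4 was read in 28 WT and 4 Mkx-/- cells. In TC-like cells at least 2 were read in 51.4% and 88.9%, and all 4 in 1 WT and 8 Mkx-/- cells. Every TC-like cell held a Mgp read, so at least 2 there meant Mgp and any further inhibitor. Each inhibitor alone was also read in a larger share of all Mkx-/- cells. Reading together beyond those single-gene shares was not tested. At 28000 reads per cell the TC-like shares were 40.9% and 80.9% for at least 2, and 10% and 32% for at least 3. No promoter was read in 41% of WT and 41.5% of Mkx-/- cells.

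Within the Mkx-/- TC-like cells the pyrophosphate genes were spread over cells with and without each other. Ank was read in 14 of 32 cells with an Enpp1 read and in 20 of 49 without one, 43.8% and 40.8%. Enpp1 was read in 35.2% of the 54 cells with a Spp1 read and in 48.1% of the 27 without. At least 1 of Enpp1 and Ank was read in 64.2% of these cells and in 35.1% of the WT TC-like cells. Both were read in 17.3% and 4.05%. Across all 451 cells the Spearman correlation of per-cell CPM was 0.39 for Mgp and Spp1, which share the same libraries and the higher depth of TC-like cells, and between -0.08 and 0.13 for the other pairs among Mgp, Spp1, Ank and Slc20a1, too weak in sparse counts to read. Of 5124 genes read in at least 20% of cells, those most like Mgp were Igfbp7 (rho 0.68), Cxcl14 (0.65) and Cpxm2 (0.63). Those most like Spp1 were Kera (0.45), Cilp2 (0.45) and Pdgfrl (0.44). For Ank the nearest were Copb2, Ifi27 and Mdh1, each at 0.19, and for Slc20a1 Ccl2 (0.25), Esd (0.22) and Rpl29 (0.21), which is weak in sparse counts.

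**Figure D4:**
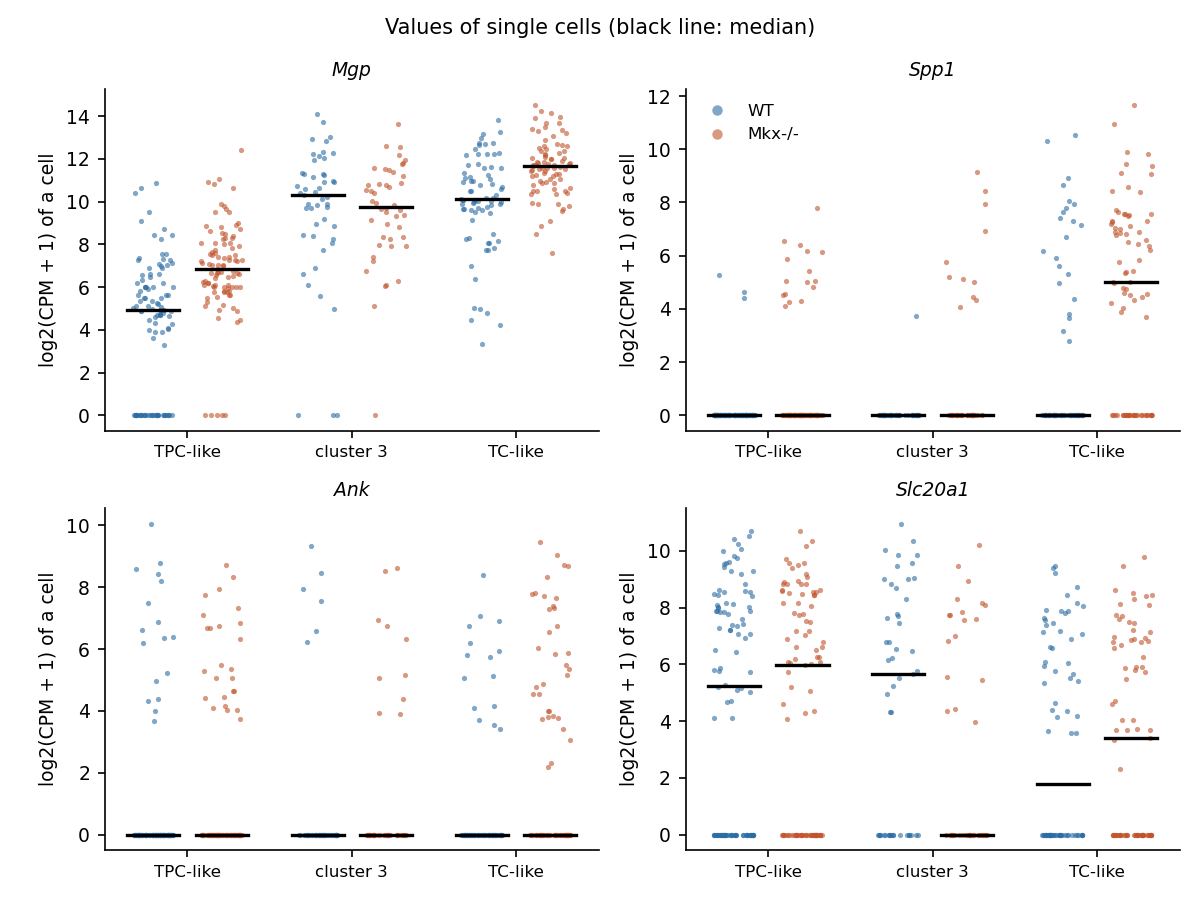
Level of Mgp, Spp1, Ank and Slc20a1 in each cell as log2(CPM + 1), by cluster, WT in blue and Mkx-/- in orange, with the median of each set of cells as a black line. Cells of the genotypes overlap in every panel, and the Mgp medians differ most in TPC-like and TC-like cells. For Spp1 and Ank most cells outside the TC-like cluster lie at 0. So do most TC-like cells of both genotypes for Ank and most WT TC-like cells for Spp1.

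The balance of inhibitor to promoter reads was taken within a genotype, so that library size cancelled. WT cells held 22123 inhibitor and 2230 promoter reads, 9.92 inhibitor reads for each promoter read. Mkx-/- cells held 40080 and 1958, a balance of 20.5, and the log2 change was 1.04 (0.95 to 1.14). Reads are not corrected for gene length, so the balance compares genotypes and not the proteins. It was almost the balance of a single pair, since Mgp made 95.4% and 93.9% of the inhibitor reads and Slc20a1 93.3% and 89.3% of the promoter reads. Without Mgp the balance was 0.46 in WT against 1.24 in Mkx-/- cells, a log2 change of 1.43 (1.29 to 1.57), and with Enpp1 and Ank as the only inhibitors the log2 change was 1.07 (0.90 to 1.24).

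The balance stood higher in Mkx-/- cells in each cluster, from different genes. In TPC-like cells it was 0.70 and 2.01, a log2 change of 1.52 (1.36 to 1.69). This rested on 2 WT cells, since with cells clustered without the 9 genes and the other mineralization genes the WT balance was 1.07 and the log2 change 0.92 (0.76 to 1.07). Without Mgp the TPC-like change was 0.14 (-0.15 to 0.42), and 0.58 (0.31 to 0.85) with 10 dimensions. In cluster 3 it was 9.95 and 22.2, a log2 change of 1.16 (0.91 to 1.41), with Mgp close to its WT level and Slc20a1 lower. Without Mgp it was 0.33 and 1.18 there, a log2 change of 1.84 (1.45 to 2.22). Spp1 also entered that value, with 1 WT read and 87 Mkx-/- reads, 35 of them in 1 cell. In TC-like cells it was 31.1 and 46.7, a log2 change of 0.59 (0.42 to 0.75), and without Mgp it was 1.15 and 2.72, a log2 change of 1.24 (1.02 to 1.45). Promoter reads outnumbered those of all 4 inhibitors in the TPC-like WT cells, though not when these 2 cells were counted there.

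**Figure D5:**
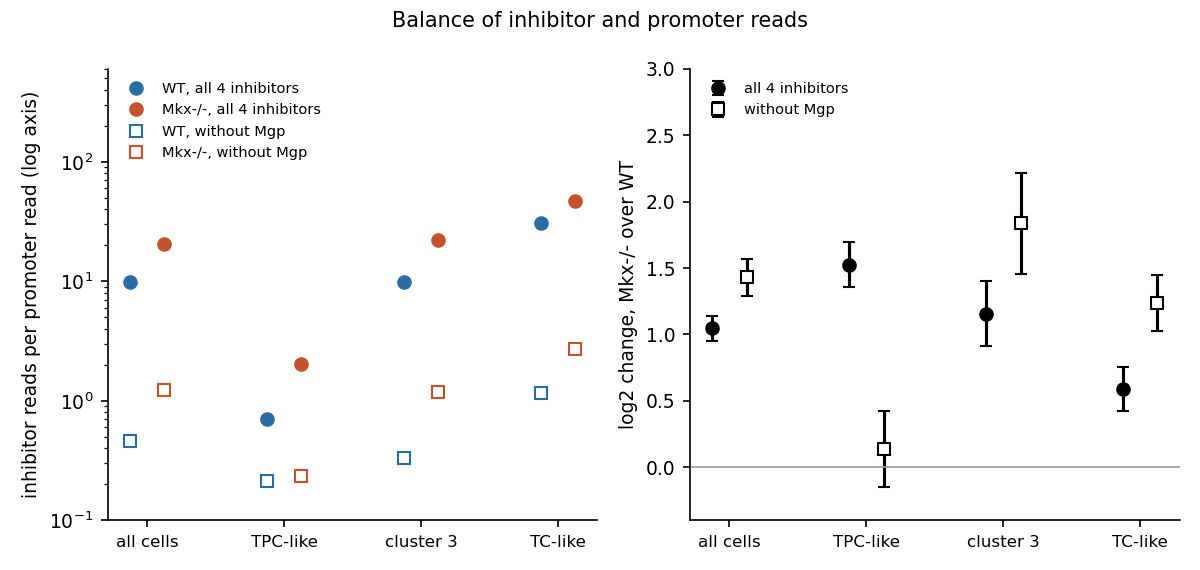
Left, inhibitor reads per promoter read (log axis) for all cells and each cluster, WT in blue and Mkx-/- in orange, with all 4 inhibitors (filled) and without Mgp (open). Right, log2 change of that balance, Mkx-/- over WT, with exact 95% intervals of counting error; with all 4 inhibitors it lies between 0.59 and 1.52, where the TPC-like value was 0.92 when clustered without these genes, and without Mgp the TPC-like change of 0.14 has an interval that includes 0.

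Other genes of mineralization did not move as a block. Of 39 such genes, 24 had at least 100 reads, of which 3 were higher and 2 lower in Mkx-/- by over 2-fold, 12.5% and 8.33%, beside the 7.23% and 6.12% of all genes, with a median log2 ratio of 0.14. Nt5e, whose enzyme CD73 makes adenosine and phosphate from AMP downstream of ENPP1, was at 10.9 and 41.2 CPM (log2 ratio 1.92, from 1.66 to 2.19), and was read in 33.8% of WT and 61.7% of Mkx-/- TC-like cells. Ucma, a Gla protein of cartilage, was at 3.96 and 49 CPM (log2 ratio 3.63, from 3.23 to 4.06). One WT cell held 55.6% of the WT reads, and the log2 ratio was 4.51 without the leading cells, while 686 of its 693 reads in Mkx-/- lay in TC-like cells. Bglap2 was the remaining one that was higher.

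Entpd1, whose enzyme CD39 breaks ATP and ADP down, was at 12.5 and 3.61 CPM (log2 ratio -1.79, from -2.27 to -1.33), and 1 cell held 65.9% of its WT reads and 1 cell 82.4% of its Mkx-/- reads. Without these cells the log2 ratio was -2.77. Dlx5, an osteoblast transcription factor, had 85 and 28 reads (log2 ratio -1.66, from -2.33 to -1.02). Xpr1, which exports phosphate from cells, was at 40.2 and 25.9 CPM (log2 ratio -0.64, from -0.83 to -0.44), and at 43.8 and 20.2 CPM in TC-like cells. Ggcx, the carboxylase of Gla proteins, was at 40.4 and 25 CPM, and Vkorc1, which recycles its cofactor vitamin K, at 271.7 and 238 CPM. The most abundant genes of the remaining lists did not pass 2-fold. Ppa1, which splits pyrophosphate inside cells, was at 101.2 and 92.1 CPM, and Fam20c, the kinase of secreted phosphoproteins, at 55.8 and 69.9 CPM. Tnfrsf11b, the gene of osteoprotegerin, was at 26.8 and 35.5 CPM, Atf4 at 323.5 and 408.2 CPM and Cd44 at 1328 and 1586 CPM. Ibsp, Mepe, Dspp, Ahsg and Sp7 had no read in either genotype.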

How the data were processed

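The deposited table holds raw counts of reads per gene symbol and cell, with no molecular identifiers. According to the study's methods the authors removed bad reads with AfterQC, trimmed 3′ bases of quality under 20 with NGSQCToolkit, mapped with bowtie2 to mm9 and counted with featureCounts, whereas the submitters' processing notes name mm10. Versions, annotation, strand and the handling of reads with several matches were not given in the sources used here, so counts of overlapping or duplicated genes are uncertain. Symbols were matched by name, 34106 of 48795 to RefSeq on GRCm38.p6, whose positions are given, and 28993 to GENCODE M1, from which only exon lengths and coding sequences were taken.

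All 451 cells of the table were used, each with at least 1801 genes, which is fewer cells than the study states to have kept, and no doublets were removed. CPM was computed from reads summed over cells, with exact Poisson, conditional binomial and Clopper-Pearson intervals, and Newcombe intervals for differences of shares (scipy 1.17.1), which cover counting error only. Over genes with at least 100 reads in both genotypes together, over 2-fold was the rule for higher or lower. A sum of 0 was set to 3 reads. Cells were thinned to 28000 reads in 20 draws, which left out 23 WT and 18 Mkx-/- cells. Clusters were rebuilt with Seurat 5.3.0, a later release than the study's, from 1691 variable genes, 4 dimensions and a resolution of 0.4, and may differ from the study's clusters. Scaling alternatives used edgeR 4.0.16 and DESeq2 1.42.0. The ratio and thinning steps were tested on simulated data.

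The members and lists were chosen with earlier results of these data known. Named genes were the members, listed genes past 2-fold and the most abundant gene of each list. Acp5, Xpr1, Ggcx, Anxa5, Runx2 and the remaining osteopontin receptors were named after their values were seen. Promoter entries for Mgp and Slc20a2 were not used here.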

Additional observations from a re-analysis of the deposited data

Results flagged for a closer look

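The change between genotypes had opposite directions in a pair of clusters for 5 pairs of gene and clusters, each beyond its interval of counting error, and the difference between the clusters was not tested because a genotype was 1 sample. The log2 ratio of Enpp1 was 1.72 in TC-like and -0.57 in TPC-like cells, a difference of 2.30, and the TPC-like value came from 1 WT cell with 89.2% of the reads and was 2.14 without the leading cells. With 10 dimensions it was near 0 there. The log2 ratio of Slc20a1 was 0.24 in TC-like cells, -0.25 in TPC-like cells and -1.41 in cluster 3, differences of 0.49 and 1.65. The TC-like direction turned at 28000 reads per cell, with 85 CPM in WT and 83.2 in Mkx-/-, and as a mean of per-cell CPM, with 84.6 and 82.8. That of Mgp was 0.86 in TC-like, 1.67 in TPC-like cells and -0.14 in cluster 3, differences of 1.01 and 1.82. The cluster 3 value was -0.02 (-0.09 to 0.04) with 10 dimensions, and the TPC-like value was 0.85 with cells clustered without the 9 genes and the other mineralization genes. Such opposite movement was common, at 20.5% of 7386 genes between TC-like and TPC-like cells, 18.7% of 5615 genes between TC-like cells and cluster 3 and 17.9% of 5660 genes between TPC-like cells and cluster 3. These shares are of genes with at least 100 reads in both clusters, as the 5 pairs also had. Of the members, 6 had that depth in TPC-like cells, 4 in cluster 3 and 6 in TC-like cells. The pairs examined were not counted, so the 5 are not a share.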

How the results depend on the processing

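The count of 2 members higher by over 2-fold was 1 (Spp1) with the mean of per-cell CPM, with totals without Col1a1, Col1a2 and Sparc, at 28000 reads per cell, with clusters weighted equally and, as an alternative chosen after seeing the data, without cells with 3 macrophage markers. It was 5 at 1.5-fold and 3 without the leading cell of each gene, which added Enpp1. The log2 change of the balance was 1.26 at 28000 reads per cell, 1.43 without Mgp and 0.80 as a mean of per-gene log2 ratios. Across the alternatives for all cells the log2 ratio ran from 1.06 to 1.84 for Spp1, 0.52 to 0.85 for Mgp, 0.40 to 1.09 for Ank, 0.26 to 1.12 for Enpp1, 0.62 to 0.96 for Slc20a2 and -0.51 to -0.31 for Slc20a1, and it changed sign for Bglap, from -0.50 to 0.15, with 0.15 by the mean of per-cell CPM, 0.03 at 28000 reads per cell and 0.01 with clusters weighted equally. Over all cells no scaling moved the median of all genes by over 0.1. Other scaling totals were not tried within a cluster, and the median log2 ratio in TC-like cells was 0.21. In cluster 3 the log2 ratio of Slc20a2, from 19 WT and 34 Mkx-/- reads, was 0.84, and -1.48 with 10 dimensions. Sparse reads per cell and 1 sample per genotype limit these values, and error between mice is unknown. No paired analysis was possible because the labels give no replicate numbers that tie cells across genotypes.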
